A study of Homo sapiens with 3 samples.

Results

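The 10 myeloid C-type lectin genes CLEC7A, CLEC4A, CLEC4D, CLEC4E, CLEC5A, CLEC10A, CLEC12A, CLEC2B, MRC1 and CD209 were taken by name from 20033 protein-coding gene records on the primary chromosomes of hg38. For each gene, peaks of acetylated histone H3 lysine 27 (H3K27ac) and of the deacetylase SIRT1 were collected over its record and 50 kb either side. The chromatin came from wild-type THP1, an established human monocytic leukaemia cell line, treated for 24 h with PMA, a phorbol ester that makes monocytic cells adherent and macrophage-like. The study comprised 3 samples, namely 1 H3K27ac immunoprecipitation, 1 SIRT1 immunoprecipitation and 1 input, all with the same genotype and treatment. The input signal and untreated cells were not analysed here, and the PMA dose is not given in the sources used here. With 1 library per antibody no difference has a replicate check, and no test was run.

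C-type lectin receptors sit on the surface of myeloid cells and bind sugars, lipids and other ligands of microbes and of damaged or neighbouring cells. Some activate the kinase SYK through a motif in their own tail or through the adaptor chains FCER1G and TYROBP, and CARD9, BCL10 and MALT1 carry that signal on to NF-kB. Others carry inhibitory motifs that recruit phosphatases, and a further group takes up glycoproteins or mediates adhesion. Macrophages and dendritic cells are the cells in which most of these receptors were described, and H3K27ac is a mark of active promoters and enhancers.

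The upstream sequences of the lectin genes with an entry in the RefSeq promoter table (GRCh38.p14) are shown because 2 of them lay wholly inside an H3K27ac peak and the other 2 wholly outside one. Each is the 250 bases before the gene start, read 5′ to 3′ on the gene's own strand. Capitals mark matches, on either strand, to the letters GAGGAA (the core of sites bound by the myeloid factor PU.1) or TTGCNNAA (a C/EBP site). The CD209 sequence is chr19:7747535-7747784 on the minus strand and the CLEC5A sequence is chr7:141946975-141947224 on the minus strand. The CLEC4E sequence is chr12:8540906-8541155 on the minus strand and the CLEC12A sequence is chr12:9971159-9971408 on the plus strand.
CD209: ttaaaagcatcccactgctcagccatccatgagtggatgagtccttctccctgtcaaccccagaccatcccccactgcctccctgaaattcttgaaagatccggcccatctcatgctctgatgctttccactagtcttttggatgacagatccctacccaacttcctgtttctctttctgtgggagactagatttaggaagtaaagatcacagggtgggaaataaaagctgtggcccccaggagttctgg
CLEC5A: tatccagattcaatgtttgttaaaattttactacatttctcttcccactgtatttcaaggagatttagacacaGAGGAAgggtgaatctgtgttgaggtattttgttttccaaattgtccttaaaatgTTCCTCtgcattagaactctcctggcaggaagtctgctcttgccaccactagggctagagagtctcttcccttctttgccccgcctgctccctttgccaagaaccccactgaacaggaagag
CLEC4E: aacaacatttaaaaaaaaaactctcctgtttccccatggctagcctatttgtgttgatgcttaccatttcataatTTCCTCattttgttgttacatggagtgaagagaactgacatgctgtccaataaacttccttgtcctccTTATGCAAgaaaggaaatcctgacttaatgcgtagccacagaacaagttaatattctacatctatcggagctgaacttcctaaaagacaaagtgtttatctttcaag
CLEC12A: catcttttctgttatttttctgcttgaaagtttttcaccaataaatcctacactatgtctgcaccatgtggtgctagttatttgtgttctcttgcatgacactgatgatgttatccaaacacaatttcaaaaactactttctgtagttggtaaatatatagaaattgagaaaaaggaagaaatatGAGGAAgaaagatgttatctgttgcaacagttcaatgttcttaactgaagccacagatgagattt

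All 250 bases of the CD209 and CLEC5A sequences lay inside H3K27ac peaks, and 0 bases of the CLEC4E and CLEC12A sequences did. The PU.1 letters occurred in 3 of the 4 promoters, against 27.9% of 22198 promoters of protein-coding genes in the same 300-base window (250 bases before to 50 after the start). They lay at -177 to -172 and -122 to -117 in CLEC5A, at -175 to -170 in CLEC4E and at -65 to -60 in CLEC12A, with the base before the gene start counted as -1. The C/EBP letters occurred in 1 of the 4, in CLEC4E at -107 to -100, against 8.69% of all promoters. The AP-1 letters TGANTCA and the NF-kB site occurred in 0 of the 4, against 6.15% and 0.500% of all promoters. The TATA letters TATAAA occurred in 1, downstream of the CLEC12A start at 41 to 46 on the gene's strand and overlapping at 39 to 44 on the other strand, against 9.47%. In percent GC the printed sequences were 32.8 in CLEC12A, 36.4 in CLEC4E, 43.6 in CLEC5A and 49.6 in CD209, below the median of 62 for all promoters. A match is a run of letters and says nothing of whether the factor was bound.

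H3K27ac marked the start of 4 of the 10 lectin genes: CD209, CLEC5A, CLEC7A and CLEC4E. CD209 stood above the other 3, with a fold of 22.1 at its start, while the others lay between 3.61 and 6.08. MRC1, the mannose receptor gene used as a macrophage marker, and CLEC2B had no H3K27ac peak in the record or within 50 kb. The remaining 4 genes had peaks in the 50 kb around them but none at their start. A peak counted as at the start when it shared at least 1 base with 1 kb either side of it. The start came from the promoter table for CLEC4E, CLEC5A, CLEC12A and CD209, and either end of the record stood in for it at the other 6 genes. Fold is the authors' value at the peak summit relative to local background. A fold at the start is that of the highest peak counted there, whose summit may lie more than 1 kb away.

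By the same rule 56.9% of all protein-coding genes had an H3K27ac peak at the start, and the 4 of 10 lectin genes lay below that share. With 10 genes the gap is a matter of few genes, and whether the shares differ was not tested. Taking either end of the record for every gene gave the same 4 lectin genes and 56.7% of all genes. Inside the record itself, CLEC7A, CLEC5A, CLEC12A and CD209 had a peak, which is 4 of 10 against 62.4% of all genes. With 50 kb either side, 8 of 10 had one, against 83.0%. Of the 39 distinct H3K27ac peaks in these windows, 4 lay at a lectin gene start and 3 more had their summit in a lectin gene record. A further 11 lay at another protein-coding gene's start, or at either end of its record where no start is listed. Another 5 lay inside another gene and 16 outside protein-coding genes. Peaks in a window are therefore described by where they lie and are not assigned to the lectin gene.

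**Figure D1:**
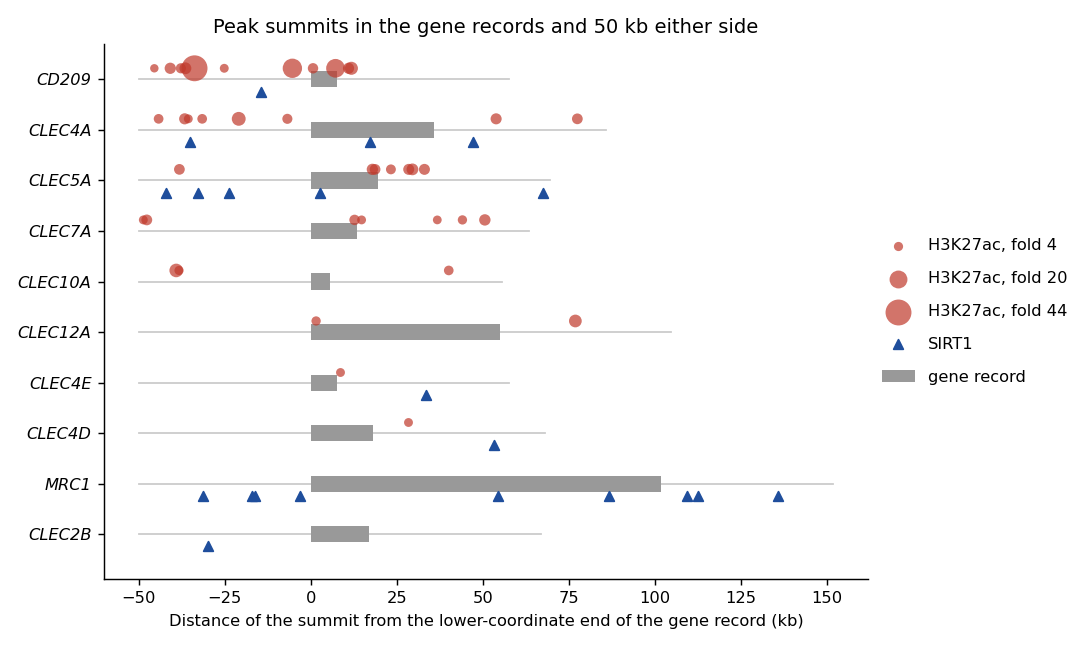
Summits of H3K27ac peaks (red circles, area rising with fold) and SIRT1 peaks (blue triangles) for each gene, with distance in kb from the lower-coordinate end of the gene record on the x axis and the gene record as a grey bar. CD209 has 11 H3K27ac peaks in its window, MRC1 and CLEC2B have 0, and MRC1 has 9 SIRT1 peaks.

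Among the receptors that activate SYK, H3K27ac peaks covered 5.15% of the window at CLEC5A, 3.10% at CLEC7A, 0.361% at CLEC4E and 0.329% at CLEC4D. CLEC5A encodes MDL-1, a receptor that pairs with the adaptor TYROBP. Its record spans chromosome 7 from 141927357 to 141946974, with the start at 141946974. A peak from 141945792 to 141947431 covered the start, with a fold of 6.08 on 17 fragments, the number recovered at the summit. A second peak from 141944245 to 141945401 lay within the gene at a fold of 6.93 on 15 fragments. Upstream of the start 4 more peaks followed, with summits 3.68, 8.86, 9.95 and 13.4 kb from it and folds of 4.89, 6.48, 7.66 and 6.47. These 6 peaks formed a chain of 17.3 kb when peaks within 12.5 kb were joined. Of 19490 such chains 8.84% held as many peaks or more, while 52.0% held 1 peak, whatever its width. Of the 11401 genes marked at the start, 11.1% had a lower fold there than CLEC5A.

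CLEC7A encodes Dectin-1, the receptor for fungal beta-glucan, which carries its own SYK-recruiting motif. Its record spans chromosome 12 from 10116777 to 10130304. A peak from 10129315 to 10129869 lay inside the record, with its summit 0.796 kb from the upper end, a fold of 5.68 and 10 fragments. Outside that end a second peak, from 10131440 to 10131970, had a fold of 3.62 on 12 fragments. The other 5 peaks in the window lay farther away. At the upper end of the window, peaks with folds of 4.13 and 7.10 lay inside OLR1, the gene of the oxidised LDL receptor LOX-1, and 1 peak with a fold of 3.48 lay between OLR1 and CLEC7A. At the lower end, peaks with folds of 3.61 and 6.20 lay at CLEC1A, which encodes another lectin-like receptor.

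CLEC4E and CLEC4D encode Mincle and its partner MCL, which bind mycobacterial cord factor and signal through FCER1G. The 2 genes are neighbours on chromosome 12, with records from 8533275 to 8540905 and from 8513503 to 8531696, and their windows share the same single H3K27ac peak. That peak, from 8541701 to 8542089, had its summit 0.813 kb upstream of the CLEC4E start and 10.0 kb from the nearer end of CLEC4D. Its fold was 3.61 on 6 fragments, the fewest of any of the 39 peaks, a number it shared with others. Only 1.58% of the marked genes had a lower fold at the start. Below it the list held no H3K27ac peak for 298 kb, from 8244055 to 8541700. Of the 48711 gaps between neighbouring peaks 3.83% were longer, a share of gaps and not of genes or of the genome.

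The inhibitory receptors had no H3K27ac at their starts, though peaks covered 4.27% of the window at CLEC4A and 1.26% at CLEC12A. CLEC4A encodes DCIR, which carries an inhibitory tail motif, and its record on chromosome 12 runs from 8102907 to 8138607. The window held 8 peaks, all outside the record, the nearest 6.57 kb away and inside NECAP1, an endocytosis gene. The strongest, with a fold of 11.3 on 25 fragments, lay at the NECAP1 start. Others lay at the start of C3AR1, the receptor gene for the complement fragment C3a, with folds of 6.71 and 3.61. Peaks near ZNF705A at 6.59 and in the non-coding FAM66C at 6.09 lie at gene families with near-identical copies elsewhere, and how shared reads were placed is not given in the sources used here.

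CLEC12A encodes MICL, an inhibitory receptor for uric acid crystals that is also found on leukaemic blasts. Its record on chromosome 12 spans 9951268 to 10006150 and its listed start is at 9971409. A narrow peak of 250 bp from 9952720 to 9952969 lay inside the record, 1.55 kb from the lower end, with a fold of 4.13 on 7 fragments. Non-coding RNA records, among them the antisense CLEC12A-AS1, overlap that position. The second peak in the window had a fold of 9.29 on 17 fragments, 22.1 kb above the record in a non-coding RNA record. Nothing was listed within 1 kb of the listed start.

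**Figure D2:**
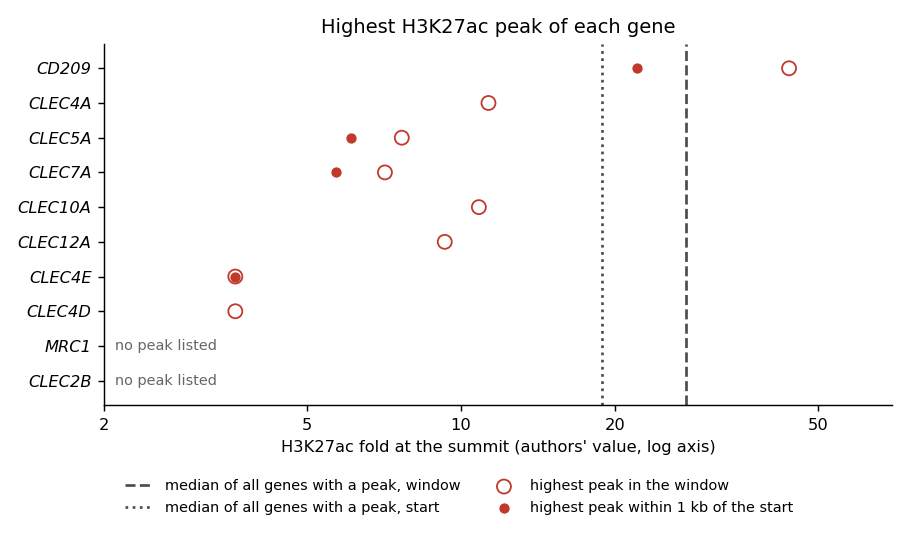
Fold of the highest H3K27ac peak for each gene on a log axis. Open circles show the window, where the peak may lie at another gene, and filled circles show peaks within 1 kb of the start. Lines mark the medians over all protein-coding genes that have such a peak. CD209 lies above both medians, at 43.9 and 22.1 against 27.5 and 18.9, and every other gene with a peak lies below the median of its kind.

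The uptake and adhesion receptors held both extremes. CD209 encodes DC-SIGN, a receptor for mannose and fucose on dendritic cells and some macrophages. Its record on chromosome 19 spans 7739993 to 7747534 with the start at 7747534. The peak over the start ran from 7746115 to 7748202, with a fold of 22.1 on 50 fragments, and 56.8% of marked genes had a lower fold at the start. A second peak, from 7739962 to 7741120 over the other end of the gene, had a fold of 5.61 on 21 fragments. Upstream of the start lay peaks with folds of 6.71 and 9.84, with summits 3.44 and 4.27 kb away. Below the record, a peak from 7734150 to 7735341 had a fold of 23.8 on 45 fragments. It lay 4.65 kb from CD209 and nearer to another lectin gene, CLEC4G, whose record ends at 7732110. These 5 peaks formed a chain of 18.2 kb, and 12.3% of all chains held as many peaks or more.

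The strongest peak in the CD209 window, and of all 39, was not at CD209. It ran from 7704130 to 7708519 over the non-coding LOC105372262, with its summit 33.8 kb from the nearer end of CD209, a fold of 43.9 and 145 fragments. FCER2, the gene of the low-affinity IgE receptor CD23, lies next to it and carried peaks with folds of 6.89 and 5.29 at its start. The lectin genes CLEC4G and CLEC4M, also in this window, had no peak at their starts. CD209 and CLEC4M have similar sequences, so reads from one could have been placed on the other, and this was not tested. In all, H3K27ac peaks covered 12.3% of the CD209 window, against a median of 2.42% over all genes.

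**Figure D3:**
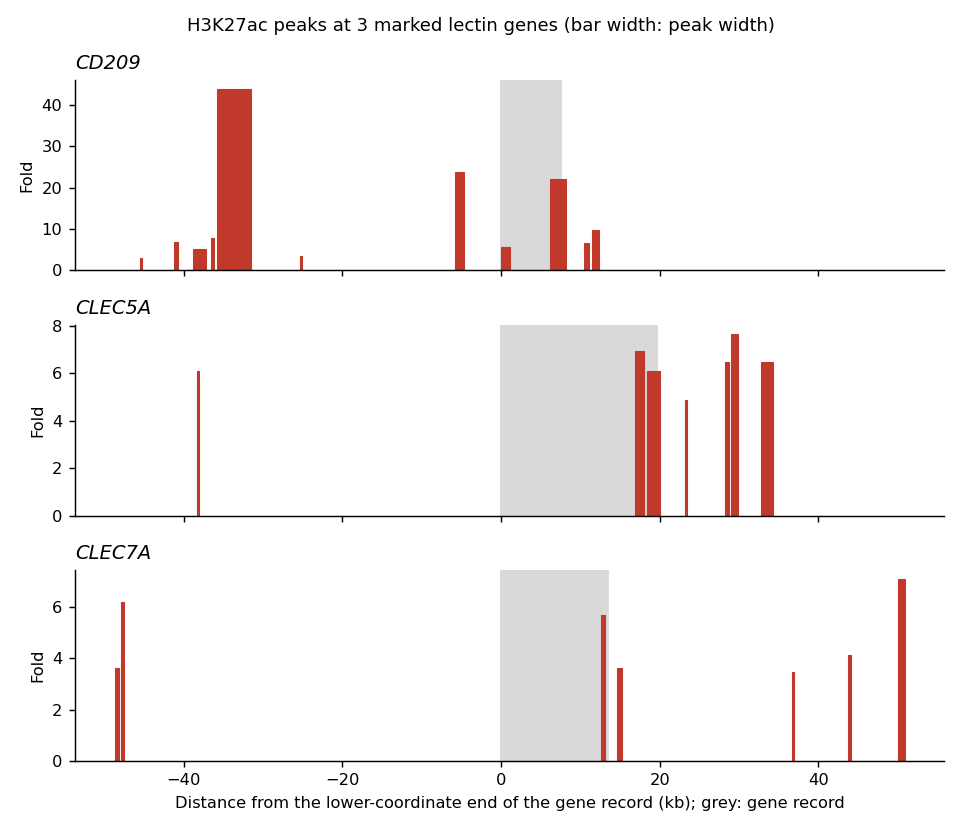
Fold of each H3K27ac peak (bar height, with a separate linear axis from 0 in each panel) against distance from the lower-coordinate end of the gene record (kb) at CD209, CLEC5A and CLEC7A; bar width is peak width and grey marks the record. The CD209 panel reaches 43.9, and no peak in the panels of CLEC5A and CLEC7A is above 7.66.

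MRC1 encodes CD206, the mannose receptor that takes up glycoproteins and marks alternatively activated macrophages. Its record spans chromosome 10 from 17809348 to 17911164. The nearest H3K27ac peak lay 164 kb below the record and the next 507 kb above it. The gene thus lay in a stretch of 772 kb with no H3K27ac peak, from 17645612 to 18418008, together with TMEM236 and SLC39A12. Of 48711 gaps between neighbouring H3K27ac peaks, 651, or 1.34%, were longer. Each gap counts once whatever its length, and the share of genes lying in gaps that long was not computed. The SIRT1 list had 27 peaks in the same stretch. Why the H3K27ac list had none there was not tested.

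CLEC10A encodes MGL, which binds terminal galactose and N-acetylgalactosamine. Its record on chromosome 17 runs from 7074537 to 7080251, and the nearest peak was 34.2 kb away. The 3 peaks in its window lay at other genes: folds of 10.8 and 3.98 at SLC16A13, a monocarboxylate transporter gene, and 4.58 at ASGR2, an asialoglycoprotein receptor gene. CLEC2B encodes AICL, a ligand for the natural killer cell receptor NKp80, and lies on chromosome 12 from 9852369 to 9869354. Its nearest H3K27ac peak was 83.4 kb away, in the CLEC12A record. The stretch without a peak around it measured 212 kb.

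The lectin windows held about as many H3K27ac peaks as those of other genes, but the highest fold in the window was mostly lower. Taken singly, the 39 distinct peaks had a median fold of 6.08, against 6.36 in the whole H3K27ac list, and 17 of them lay above that value. The median window held 2.5 H3K27ac peaks, against 3 over all genes, and 5 of the 10 were below that median. Per Mb of window the range was 0 to 102 peaks with a median of 20.7, against 23.9 over all genes. H3K27ac peaks covered a median of 1.21% of the lectin windows, against 2.42% over all genes, and 6 of the 10 were below. The highest fold in the window had a median of 8.47 over the 8 genes with a peak, against 27.5 over the 16619 genes with one. Of the 8, 7 were below, with the single peak shared by CLEC4D and CLEC4E counted for each of them. At the start the median fold was 5.88 over 4 genes, against 18.9 over the 11401 marked genes. The order of highest folds in the window, wherever the peak lay, was CD209 at 43.9, CLEC4A at 11.3, CLEC10A at 10.8 and CLEC12A at 9.29. CLEC5A at 7.66, CLEC7A at 7.10 and the shared peak of CLEC4D and CLEC4E at 3.61 followed. Of these peaks only the shared one lay at a lectin gene start, that of CLEC4E, and none had its summit in a lectin gene record. No error is available for single folds, so this order describes the 1 H3K27ac library and whether neighbours in it differ was not tested.

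No SIRT1 peak was listed at any of the 10 starts or at either end of the 10 records. Over all genes 6.23% had a SIRT1 peak at the start and 10.8% at either end, so 0 of 10 is close to that background. Inside the record, CLEC4A, CLEC5A and MRC1 had SIRT1 peaks, which is 3 of 10 against 50.7%. With 50 kb either side, 7 of 10 had one, against 92.7%. CLEC7A, CLEC10A and CLEC12A had 0 in their windows. These shares do not take the length of the gene record into account.

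The 20 distinct SIRT1 peaks in the windows rested on few fragments. At the summit 9 had 2 fragments, 9 had 3 and 2 had 4, and in the whole SIRT1 list 84.4% had 2 or 3. The highest −log10 q was 0.175, and 18 of the 20 had a value of 0, so none reached a q of 0.05. Few did anywhere: in the whole SIRT1 list 136 of 95517 peaks reached it. Folds ran from 2.20 to 3.67 with a median of 2.65, against 2.78 in the whole list. Each SIRT1 peak named below is therefore a place where 2 to 4 fragments piled up.

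MRC1 had 9 of these SIRT1 peaks, the most of the 10 genes, and no H3K27ac. Inside its record they lay from 17863762 to 17864063 and from 17895827 to 17896230, each with a fold of 2.20 on 2 fragments. The highest, from 17945219 to 17945474, lay 34.2 kb above the record with a fold of 3.67 on 4 fragments. Per Mb of window MRC1 had 44.6 SIRT1 peaks, against a median of 27.4 over all genes. CLEC5A was next at 41.8 per Mb, with 5 peaks. Of these, 1 lay inside the record from 141929876 to 141930379, at a fold of 2.88 on 3 fragments. Another lay near the start of MGAM, the gene of an intestinal maltase, at 3.67 on 4 fragments.

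CLEC4A had 3 SIRT1 peaks, among them 1 in the record from 8119918 to 8120189 with a fold of 2.94 on 3 fragments. CD209 and CLEC2B had 1 each, and CLEC4D and CLEC4E shared 1, all at a fold of 2.20 on 2 fragments. In 8 of the 10 windows the density of SIRT1 peaks was below the median of all genes. The windows with the most H3K27ac peaks per Mb had both few and many SIRT1 peaks: CD209 had 102 H3K27ac and 9.30 SIRT1 peaks per Mb, CLEC7A 61.7 and 0, CLEC4A 59.0 and 22.1, and CLEC5A 58.5 and 41.8.

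**Figure D4:**
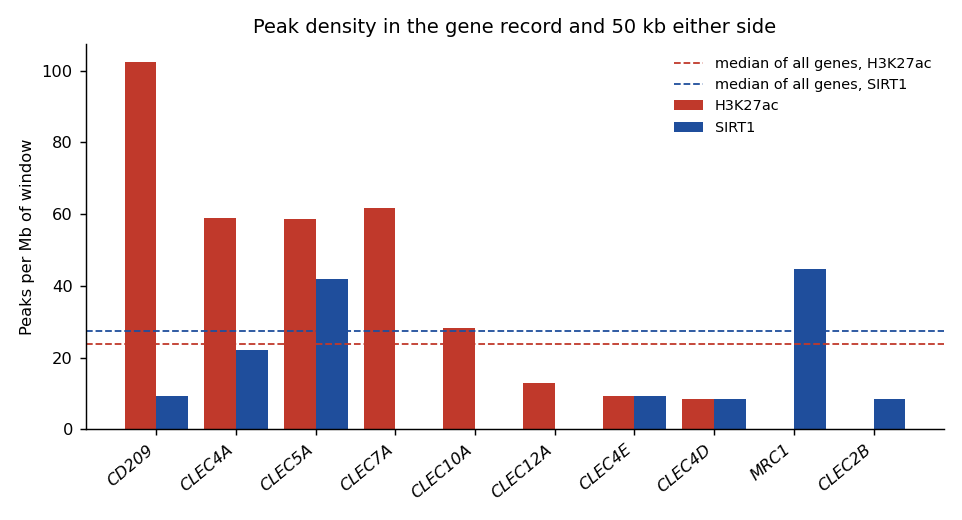
Peaks per Mb of window (gene record and 50 kb either side) for H3K27ac (red bars) and SIRT1 (blue bars), with dashed lines at the medians over all protein-coding genes. CD209 reaches 102 H3K27ac peaks per Mb, and MRC1 has 44.6 SIRT1 and 0 H3K27ac peaks per Mb.

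The overlap of both lists was compared in the same windows, since the study mapped SIRT1 beside the mark. None of the 20 SIRT1 peaks shared a base with an H3K27ac peak. The 95% exact binomial interval for 0 of 20 reaches 16.8%, covers counting error only and treats the peaks as independent. The 9 SIRT1 peaks in the MRC1 window and the 1 in the CLEC2B window had no H3K27ac peak there to overlap, so the interval is too narrow. In the windows of all protein-coding genes 599 of 59441 SIRT1 peaks, or 1.01%, overlapped H3K27ac, a share that 20 peaks cannot be told apart from. The closest pair lay 178 bp apart near C3AR1 in the CLEC4A window. The median distance from a SIRT1 peak to the nearest H3K27ac peak was 57.7 kb, and 9 of the 20 peaks lay in the H3K27ac-free stretch around MRC1.

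Most genes that carry lectin signals into the cell were marked at the start. Of 16 receptor signalling genes, 15 had H3K27ac at the start, against 56.9% of all genes. Their median fold was 46.7, against 18.9 over all marked genes. The highest were PRKCD at 103, the kinase that acts between SYK and CARD9; FCER1G at 98.8; and PTPN6 at 66.4, the phosphatase SHP-1 recruited by inhibitory receptors. SYK itself had a fold of 25.9, CARD9 one of 25.9, BCL10 one of 28.3 and MALT1 one of 46.7. TYROBP and HCST, adjacent adaptor genes, shared a peak of 61.3. PLCG2, the phospholipase gene, had no peak at its listed start. None of the 16 had a SIRT1 peak at the start, against 6.23% of all genes. Whether this list differs from the 4 of 10 receptors was not tested.

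The other lectin-like genes of the chromosome 12 cluster were mostly unmarked, while 56.9% of all protein-coding genes were marked. Of 15 such genes, CLEC1A had H3K27ac at an end, at a fold of 6.20, and the other 14 had none, among them CD69 and the natural killer receptor genes KLRB1, KLRD1 and KLRK1. C-type lectin genes elsewhere were marked in 6 of 17 cases, also below the share of all genes. The highest were THBD at 60.3, the thrombomodulin gene; MRC2 at 22.3, a collagen uptake receptor related to MRC1; and CLEC11A at 19.5, a secreted growth factor gene. CLEC14A, an endothelial gene, had a SIRT1 peak at the start, as 6.23% of all genes did, with a fold of 2.20 on 2 fragments.

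Of 12 cytokine and response genes induced downstream of these receptors, 10 were marked, against 56.9% of all genes. Their median fold was 15.0, against 18.9 over all marked genes. IL1B at 51.7, NLRP3 at 39.2 and EGR2 at 34.3 were highest, and IL6 and IL10 had no peak at the start. The label of the cells was compared with marker genes, which were chosen with earlier results of these data known. Of 12 monocyte and macrophage markers, 11 were marked, led by SPI1 at 109 and FCER1G at 98.8, with LYZ the exception. MRC1, also used as a macrophage marker, was not in this list and had no H3K27ac peak within 50 kb. Of T and NK cell markers 0 of 6 were marked, of B cell markers 1 of 4 (CD79A at 6.97), of erythroid markers 0 of 3 and of epithelial and hepatocyte markers 0 of 4. HBB and ALB had a SIRT1 peak at the start or an end, as 6.23% of all genes did, at 2.94 and 2.77 on 3 fragments each. Some genes stand in more than 1 of these lists, FCER1G and TYROBP among the signalling genes and macrophage markers and KLRD1 among the lectin-like genes and NK markers.

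**Figure D5:**
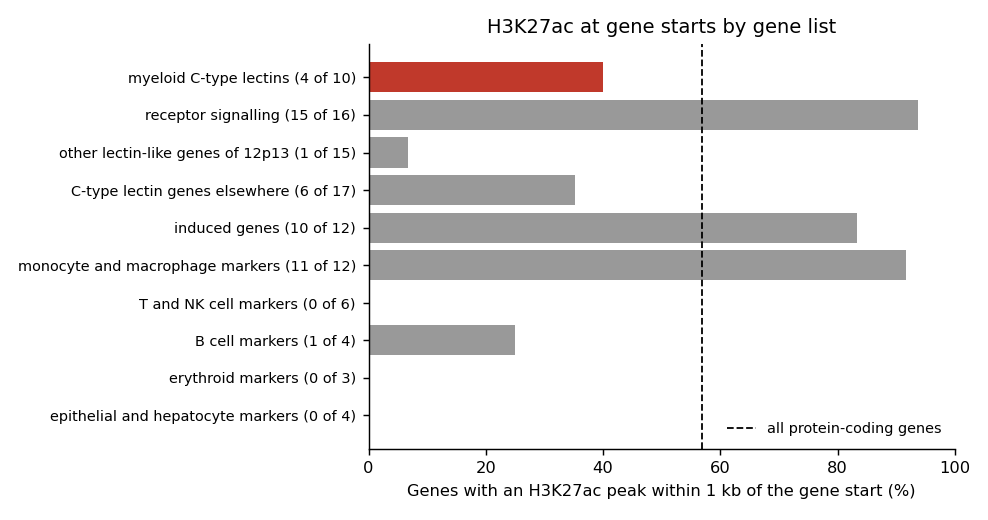
Share of genes in each list with an H3K27ac peak within 1 kb of the gene start (bars, with counts in the labels), and the share over all protein-coding genes as a dashed line at 56.9%. The lectin genes lie at 4 of 10, the receptor signalling genes at 15 of 16 and the other lectin-like genes of the chromosome 12 cluster at 1 of 15.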

How the data were processed

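Chromatin immunoprecipitation sequencing was measured in PMA-treated THP1 cells. MACS2 and deepTools on the hg38 build are named, per the submitters' processing notes. Versions, the aligner and the control sample were not given in the sources used here. The authors deposited, per peak, a fold at the summit, a −log10 p and −log10 q, and a score made from q (H3K27ac) or p (SIRT1). H3K27ac peaks reached down to a −log10 q of 1.30 and SIRT1 peaks to a −log10 p of 2.00, so folds and scores were read within their list. The summit offset was used as deposited. On the primary chromosomes 48735 H3K27ac and 95517 SIRT1 peaks were used; sequencing depth was not analysed here.

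Gene records were RefSeq's (GRCh38.p14), and starts came from the RefSeq promoter table for 79.1% of genes and 4 of 10 members. Elsewhere either record end stood in. Fragments at a summit were recovered from fold and −log10 p as a Poisson tail, with a single whole-number solution for 99.99% and 100% of peaks; the step was tested on simulated data. The planned search for protein features was not run.

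The members and the 9 gene lists were chosen with earlier results of these data known. The text names all members, up to 3 genes per list with the highest fold, exceptions of 5 or fewer, genes with SIRT1 at the start, and neighbours in the windows with a peak; SYK, CARD9, BCL10, MALT1, TYROBP, HCST, CD69, KLRB1, KLRD1, KLRK1, CLEC4G, CLEC4M and genes around a peak or stretch were named after their values were seen. Alternatives changed the threshold, window and overlap rule. Scripts ran under Python 3.11.15 with pandas 2.3.3, numpy 2.4.6, matplotlib 3.10.9 and scipy 1.17.1.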

Additional observations from a re-analysis of the deposited data

How the results depend on the processing

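The number of lectin genes with H3K27ac at the start stayed between 3 and 5, and the number with H3K27ac in the window between 6 and 9, under every alternative run for them. A fold of at least 4, and likewise a −log10 q of at least 5, left out the shared peak of CLEC4D and CLEC4E. Windows of 10 kb either side held 15 distinct H3K27ac peaks and 6 SIRT1 peaks in place of 39 and 20, as narrower windows hold fewer. SIRT1 peaks fell to 0 with a −log10 q of at least 5, to 0 with a fold of at least 4 and to 2 on at least 4 fragments. These counts follow from the peaks' highest −log10 q of 0.175 and fold of 3.67, and from their fragment numbers. In the whole SIRT1 list 136 of 95517 peaks reached a q of 0.05, and 84.4% had 2 or 3 fragments. Counting SIRT1 over the whole record with 1 kb either side gave 3 lectin genes in place of 0. Counting an H3K27ac peak within 1 kb as overlap gave 1 SIRT1 peak in place of 0. No paired analysis was possible because each antibody had 1 library and no replicate groups were compared. A missing peak means that none passed the authors' threshold; weaker signal cannot be seen in a peak list.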
